A study of Mus musculus with 14 samples.

Results

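Evolving tumours of mice fed doxycycline (Dox) were compared here with dependent tumours of mice not given Dox, in a mouse model of T-cell acute lymphoblastic leukaemia induced by Lmo2. The libraries were chosen by their labels alone: Lmo2 status evolving with Dox gave 3 libraries (tumours VTL-153, VTL-25, VTL-21), and Lmo2 status dependent without Dox gave 2 (VTL-24, VTL-19). These are 5 of the 14 RNA sequencing libraries, which come from 8 tumours. The study compared tumours that still depend on Lmo2 with tumours that are losing or have lost that dependence. Both groups came from VTL leukaemias that arose from thymocytes injected into C57BL/6-Ly5.1;FVB F1 mice after a sublethal dose of radiation, and that were frozen, thawed and passed into C57BL/6-Rag1-/- hosts. Cells positive for both CD45.1 and CD45.2, the marks of the donor, were sorted from the host spleen before RNA was extracted. The hosts make no T or B cells of their own but keep their other blood cells. The evolving group ate food with 600 mg/kg of Dox. The design text calls the Dox step an activation, but whether Dox turns the Lmo2 transgene on or off is not in the labels, and neither is its promoter, the age of the mice, or whether a library came from 1 mouse.

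The comparison therefore sets tumour class and Dox against each other at once, and the part of each cannot be told apart. No tumour number occurs in both groups. Values of the same 3 evolving tumours without Dox are given beside the result where they help. That second comparison uses the same 2 dependent libraries, so both share any peculiarity of those libraries. The p-values measure the spread between these 5 samples.

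Lmo2 is a LIM-domain protein with no DNA binding of its own. It bridges basic helix-loop-helix factors such as Tal1 and Lyl1, which pair with E proteins, to GATA factors and Ldb1, and this complex is known for sustaining genes of blood stem cells and progenitors. Thymocytes normally shut those genes down, turn on Rag1 and Rag2 to rearrange their receptor genes, pass a checkpoint that depends on Notch1 and the pre-T cell receptor, and then express CD4 and CD8. Ikaros, encoded by Ikzf1, is a zinc finger repressor of this lineage and a tumour suppressor in T-cell leukaemia.

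Deposited counts summed to between 18753251 and 21599637 in the 5 libraries, and mitochondrial genes held 1.95% to 4.73% of them. All 12 T cell identity genes were analysed here. Their summed level was 7077 to 9375 CPM (counts scaled to an equal library size) in the evolving tumours with Dox. In the dependent tumours it was 6753 and 7154 CPM, so T cell genes were expressed in each library. Single genes could still be low, with Trbc1 at 0.759 CPM in VTL-153 and 3.39 CPM in VTL-21 with Dox, and Trac at 10.5 CPM in VTL-19. VTL-21 with Dox stood apart in the sum of B cell markers. The 8 genes summed to 6545 CPM, of which Ighm held 6275 CPM, against 128 to 717 CPM in the other 4 libraries. Not every member followed. Cd79b and Blk stood higher in VTL-25 with Dox, at 28.9 and 15.6 CPM, than in VTL-21 with Dox, at 4.47 and 1.52 CPM. Its 18 myeloid markers summed to 269.7 CPM, against 22.6 to 133 CPM in the other 4, although VTL-153 and VTL-25 without Dox had sums of 203 and 264.5 CPM. Its erythroid gene Hbb-bs stood at 73.5 CPM, against 0.0468 to 6.04 CPM. Of the 18 B cell markers, 10 were not analysed here, the defining genes Cd79a and Pax5 among them. The part of these other cells in the results was not tested, so values without VTL-21 are given where they differ.

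Expressed T cell receptor beta variable segments also set libraries apart. Shares are of the 12 such segments analysed here, not of the whole locus. Trbv24 held 73.5% and 95.9% of their counts in VTL-153 and VTL-21 with Dox, while Trbv5 held 99.6% in VTL-25 with Dox. The same segment, Trbv24, led all 3 evolving libraries without Dox, VTL-25 among them, although they carry separate tumour numbers. Without Dox, VTL-153 and VTL-25 lay at least 4-fold apart in 85 genes, against 415 and 517 for the other pairs of evolving libraries. Whether the numbers stand for 3 separate leukaemias, and whether VTL-25 with and without Dox is 1 leukaemia, was not tested. If they are not separate, the evolving libraries are not independent samples, which the p-values assume. The tumours are called here as the labels number them. Trbv2 led both dependent tumours, with 568.8 CPM in VTL-24 and 15.0 CPM in VTL-19. By the same measure (after adding 0.5 CPM), 681 to 927 genes lay apart within the evolving tumours with Dox and 606 between the dependent tumours. Between the groups the number was 827 to 1141, and the lowest of these was for VTL-21 with Dox against VTL-19.

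**Figure D1:**
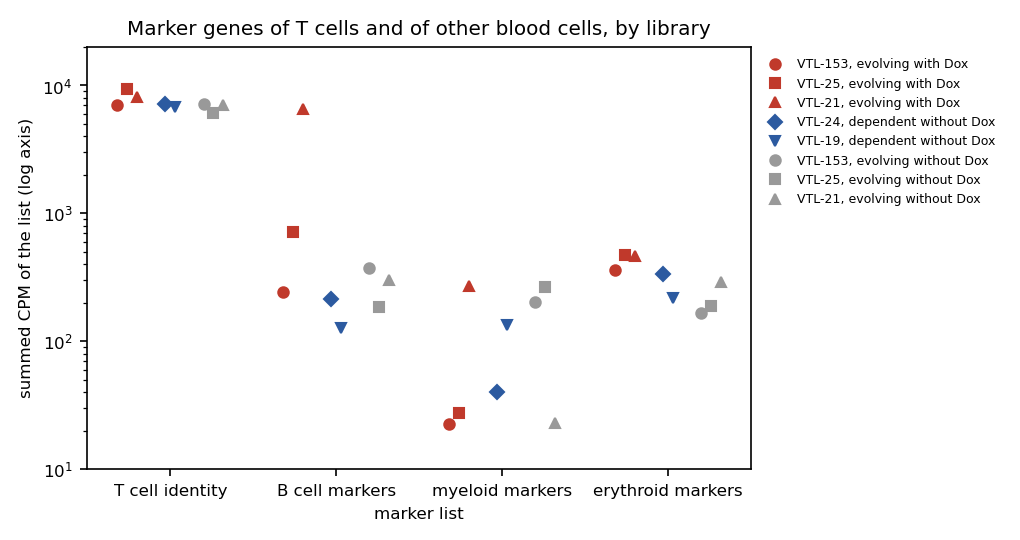
Summed CPM (log axis) of marker genes of T cells, B cells, myeloid cells and erythroid cells in each library, with 1 point per library. VTL-21 with Dox stands highest for B cell markers, at 6545 CPM, while T cell identity genes sum to 6103 to 9375 CPM in all 8 libraries drawn.

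Across the transcriptome, large differences between the groups met a large spread within them. edgeR's quasi-likelihood test called 1 gene higher in the evolving tumours with Dox (0.00825% of 12118 genes tested), P3h4, and 0 lower. At an unadjusted p under 0.05 there were 620 higher genes (5.12%) and 576 lower genes (4.75%). All 3 evolving libraries lay above both dependent libraries for 1698 genes (14%) and below both for 1693 (14%). DESeq2 called 348 higher (2.94% of 11853) and 288 lower (2.43%), and limma voom called 0. On all 14 libraries, edgeR called 30 higher (0.242% of 12421) and 65 lower (0.523%). That fit took the 14 libraries, from 8 tumours, as independent samples. Genes other than P3h4 are therefore described by their values, and none of them passed the main test. The evolving tumours without Dox, set against the same dependent libraries, gave 0 calls in 12082 genes by edgeR, 561 at an unadjusted p under 0.05, and 170 by DESeq2. There 1204 genes (9.94%) lay without overlap above and 1176 (9.70%) below.

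**Figure D2:**
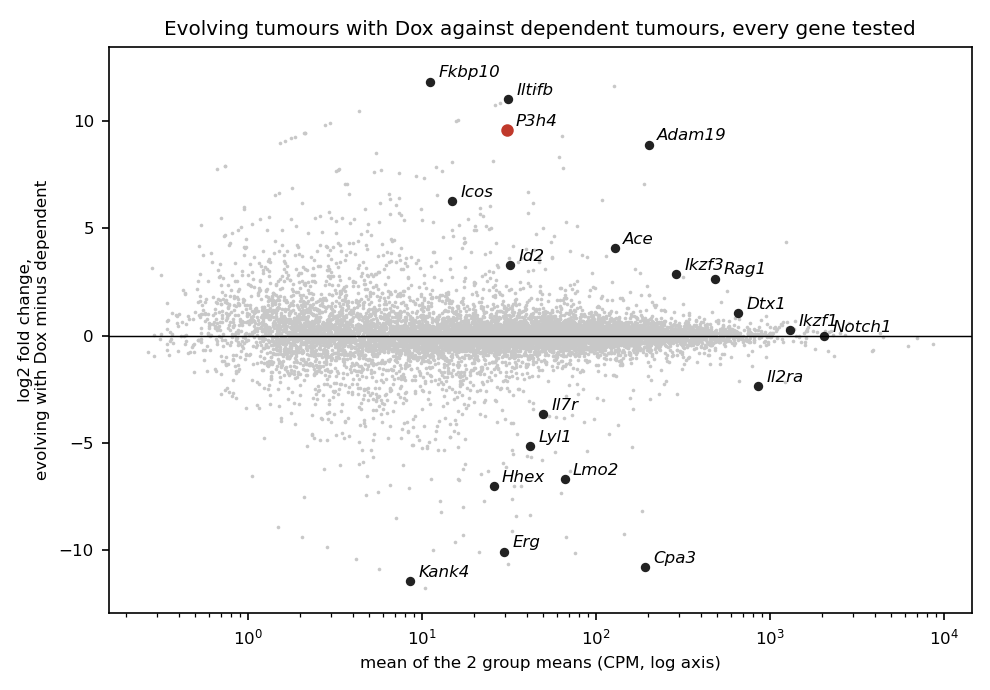
Log2 fold change (evolving with Dox minus dependent) against the mean of the group means in CPM (log axis), with 1 grey point per gene tested. P3h4, in red, is the gene that passed edgeR's test, at 9.57, while Lmo2 at −6.68 and Cpa3 at −10.77 are among the named genes in black that did not.

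Lmo2 itself was nearly silent in the evolving tumours with Dox. Its level with Dox was 0.405 CPM in VTL-153, 0.198 CPM in VTL-25 and 3.24 CPM in VTL-21, and in the dependent group it was 142 CPM in VTL-24 and 120 CPM in VTL-19. Levels of other genes are given in this order of tumours. The groups did not overlap, and every evolving library lay far below both dependent ones. Lmo2 (ENSMUSG00000032698, chromosome 2, 103957986 to 103981878 on mm10) had a log2 fold change of −6.68 (SE 1.18), with an adjusted p of 0.220 by edgeR. Without VTL-21 the change was −8.75, with an adjusted p of 0.0305 by edgeR. DESeq2 gave an adjusted p of 1.18e-08, and over the 15 alternatives the adjusted p ran up to 0.511, with 2 of them under 0.05. The same 3 evolving tumours without Dox held 708, 515 and 303 CPM, all above both dependent tumours.

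Among partners of Lmo2, the helix-loop-helix factor Lyl1 stood at 0.860, 0.644 and 5.45 CPM in the evolving tumours with Dox and at 103 and 59.6 CPM in the dependent ones, a log2 fold change of −5.13 (SE 1.04, adjusted p = 0.263 by edgeR). Without VTL-21 its adjusted p was 0.0489. Without Dox the evolving tumours held 52.0, 105 and 102 CPM of Lyl1, around the dependent level. Gata3, the GATA factor of T cells, stood at 66.1, 121 and 55.9 CPM against 203 and 155 CPM. It lay below both dependent tumours without Dox too, at 79.8, 101 and 112 CPM in the evolving tumours. The E protein gene Tcf3 stood at 259 to 280 CPM against 371 and 310 CPM, also without overlap. Lmo4, a LIM-only relative that can occupy Ldb1, had the opposite order, at 427, 169 and 364 CPM against 103 and 69.8 CPM. Of 11 tested genes of this complex, 0 passed, 4 lay without overlap below the dependent tumours and 1 above (14% of all genes each way), and the median log2 fold change was −0.35, against 0.03 over all genes tested.

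Several progenitor genes were nearly absent with Dox as well. Cpa3, which encodes a mast cell protease also made by early progenitors, stood at 0, 0.198 and 0.442 CPM in the evolving tumours with Dox and at 230 and 535 CPM in the dependent tumours. By edgeR its log2 fold change was −10.77 (SE 0.93, adjusted p = 0.0595). Hhex, a homeobox factor of early progenitors, stood at 0, 0.0991 and 1.08 CPM against 64.3 and 38.4 CPM, a log2 fold change of −7.01 (SE 1.45, adjusted p = 0.268). For both genes VTL-21 was the highest of the evolving libraries and still far below either dependent library.

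Erg, an ETS factor of blood stem cells, was at 0, 0 and 0.147 CPM against 60.9 and 57.5 CPM. Its 3 counts in the evolving group gave a ratio of dependent to evolving of 1192 (95% exact counting interval 407 to 5785), and its adjusted p by edgeR was 0.0768, or 0.0456 without VTL-21. Such intervals cover counting error only, and fitted changes of genes with so few counts depend on the small count that edgeR adds. Nfix, a nuclear factor of progenitors, stood at 0.556, 0.743 and 1.57 CPM against 3.04 and 27.9 CPM. Lyl1 lies within the span of Nfix on the other strand, and the counting's strand setting is not given in the sources used here, so reads of these genes may not be fully separated.

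Myb, a transcription factor of cycling progenitors and thymocytes, had the same order with a smaller gap, at 869, 775 and 540 CPM against 1005 and 1066 CPM. The stem cell factor receptor Kit stood at 10.7, 0.0495 and 3.54 CPM against 3.18 and 39.0 CPM, so the groups overlapped. Of 13 tested progenitor genes, 0 passed, 5 lay without overlap below the dependent tumours, where 14% of all genes did, and 0 above. Their median log2 fold change was −2.16, but it was 0.58 without VTL-19 and −3.47 without VTL-21. In the evolving tumours without Dox, Cpa3 stood at 80.4, 246 and 250 CPM and Hhex at 24.8, 69.0 and 39.3 CPM. Erg stood there at 18.7, 47.4 and 39.1 CPM. All these values were above those of the evolving tumours with Dox. Erg nevertheless lay below both dependent tumours in each of them, and Cpa3 and Hhex did so in VTL-153.

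The Lmo2 complex is known to bind E-box and GATA sites side by side, so the upstream sequences of Cpa3, Hhex and Lyl1 are shown here, from RefSeq on GRCm38.p6. Each covers 219 bases, from 250 to 32 bases before the annotated start, read 5′ to 3′ on the strand of the gene. Capitals mark matches on either strand to the E-box CANNTG and to GATAA. Windows of this kind held at least 1 E-box match in 62.0% and at least 1 GATAA match in 20.5% of 32851 promoters. Cpa3 (chr3:20242213-20242431, minus strand) held 2 E-box matches and 1 GATAA match, Lyl1 (chr8:84701207-84701425, plus strand) held 1 E-box match, and Hhex (chr19:37434591-37434809, plus strand) held 0 of either. TGGGAA, a core of Ikaros sites found in 19.3% of promoters, had 0 matches in all 3. A match describes the letters only.
Cpa3: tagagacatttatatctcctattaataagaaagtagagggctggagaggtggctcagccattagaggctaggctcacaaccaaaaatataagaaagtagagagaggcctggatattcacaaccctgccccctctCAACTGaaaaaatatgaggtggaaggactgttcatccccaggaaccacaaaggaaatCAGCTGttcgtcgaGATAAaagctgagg
Lyl1: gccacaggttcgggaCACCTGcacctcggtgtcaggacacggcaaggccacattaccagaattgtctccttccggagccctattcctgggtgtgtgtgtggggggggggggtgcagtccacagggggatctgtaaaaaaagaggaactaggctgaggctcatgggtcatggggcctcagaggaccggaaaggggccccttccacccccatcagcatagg
Hhex: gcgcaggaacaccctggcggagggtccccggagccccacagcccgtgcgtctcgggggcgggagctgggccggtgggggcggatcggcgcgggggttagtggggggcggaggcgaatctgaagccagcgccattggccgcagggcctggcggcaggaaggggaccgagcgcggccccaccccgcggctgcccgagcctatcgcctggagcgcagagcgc

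Further genes were close to absent from the evolving tumours with Dox. These were chosen after their values were seen, among clearly expressed genes at an unadjusted p under 0.01 by edgeR whose groups did not overlap. They are the 12 lowest and, further on, the 12 highest log2 fold changes of such genes. Their full separation therefore follows from the choice. Kank4, a scaffold protein gene, had 0 counts in the 3 evolving libraries and a mean of 17.1 ± 1.30 CPM (SD, n = 2) in the dependent ones, so it was at least 342-fold lower, taking 3 counts over the group as the floor. The metalloprotease gene Adamts9 was at 0 to 0.0495 CPM against 28.6 and 96.0 CPM, a ratio of dependent to evolving of 1818 (95% exact counting interval 503 to 15022). The zinc finger gene Zfp711 was at 0 to 0.0495 CPM against 24.3 and 60.6 CPM (ratio 1247, interval 345 to 10309), with an adjusted p of 0.0595 by edgeR.

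The orphan receptor gene Gpr82 stood at 0, 0.248 and 0.147 CPM against 216 and 89.3 CPM, with a log2 fold change of −10.10 (SE 0.87, adjusted p = 0.0595 by edgeR). Mdga1, a membrane-anchored adhesion protein, stood at 0.101, 0.297 and 0.196 CPM against 13.7 and 255 CPM. Pcdh7, a protocadherin, stood at 0, 0.248 and 0.0982 CPM against 96.4 and 35.6 CPM. The dependent tumours differed from each other by more than 10-fold for Mdga1 and also for Klhl32, at 2.01 and 59.8 CPM, and this spread is in their SE of 1.51 and 1.83.

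Armcx1, Stard13 and Rxrg completed the group, with 1, 3 and 2 counts in the evolving libraries. Armcx1 stood at 19.5 and 26.6 CPM in the dependent tumours, a ratio of 1380 (95% exact counting interval 247 to 54576). Stard13, which encodes a protein with a lipid transfer domain, stood at 46.6 and 22.0 CPM there, and the retinoid receptor gene Rxrg at 17.3 and 11.0 CPM. Beside these, the evolving tumours without Dox held 18.1, 16.9 and 20.4 CPM of Armcx1. They held 0.800, 1.48 and 31.0 CPM of Gpr82, so that VTL-153 and VTL-25 lay below both dependent tumours for that gene without Dox too.

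**Figure D3:**
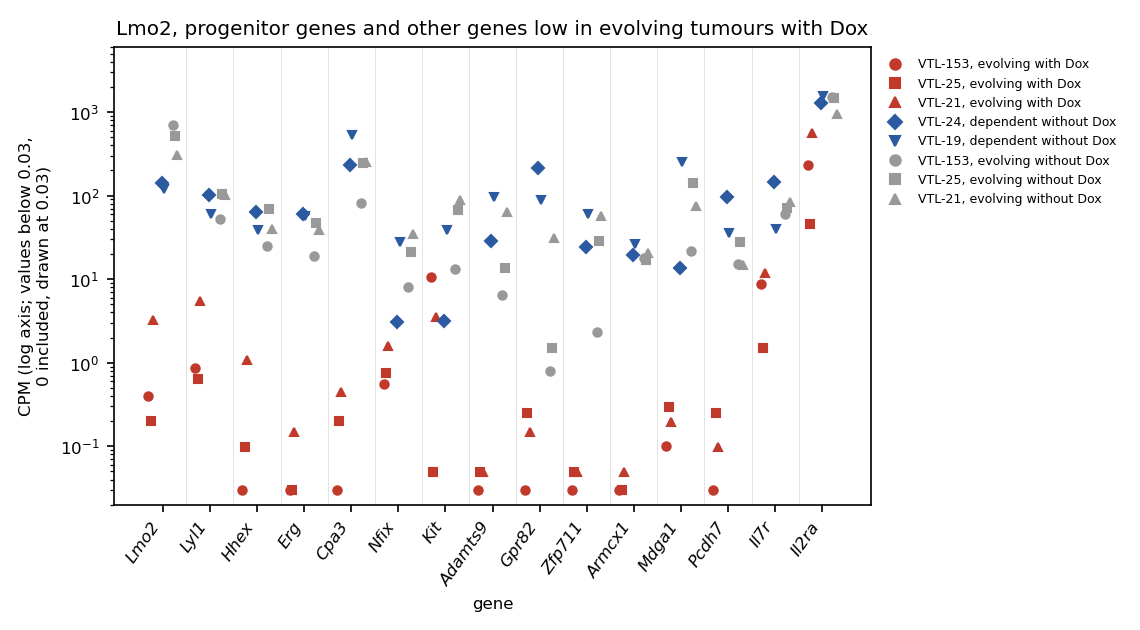
CPM per library (log axis, values below 0.03 drawn at 0.03) of Lmo2, progenitor genes, other low genes and 2 cytokine receptor genes. The red points of the evolving tumours with Dox lie below the blue points of the dependent tumours for each gene drawn except Kit. The other low genes were chosen among genes without overlap. The grey points of the same tumours without Dox lie at or near the blue ones for most of the genes.

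P3h4 was the gene that rose by the main test. P3h4 encodes a protein of the endoplasmic reticulum that acts with collagen-modifying hydroxylases. It stood at 60.0, 55.1 and 70.0 CPM in the evolving tumours with Dox and at 0.0468 and 0.105 CPM, 3 counts in all, in the dependent tumours. The evolving libraries lay close together, and the ratio of evolving to dependent was 832 (95% exact counting interval 284 to 4035). The log2 fold change was 9.57 (SE 0.42), with an adjusted p of 0.0143 by edgeR. That adjusted p was 0.301 by limma voom, 0.0611 with the independent tumours without Dox added, 0.105 with those with Dox added, 0.0454 with all 14 libraries, 0.0305 without VTL-21 and 0.0658 to 0.155 when any other of the 5 tumours was left out. Its level in the evolving tumours without Dox was 2.30, 1.44 and 0.135 CPM.

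P3h4 (ENSMUSG00000006931, chromosome 11, 100408456 to 100414836, minus strand, mm10) has as its neighbour Fkbp10 (100415697 to 100424824, plus strand), a chaperone and prolyl isomerase of collagen. Fkbp10 stood at 7.08, 22.7 and 37.4 CPM in the evolving tumours with Dox and had 0 counts in both dependent tumours, at least 304-fold higher by the floor of 3 counts. Its adjusted p was 0.180 by edgeR. Sdc1, a cell-surface proteoglycan, stood at 189, 223 and 86.0 CPM against 19.7 and 6.41 CPM, and P4ha1, a collagen hydroxylase subunit, at 58.6 ± 12.7 CPM (SD, n = 3) against 28.4 ± 8.32 CPM (n = 2). Of 7 tested collagen and matrix genes, 1 passed, 4 lay without overlap above the dependent tumours and 0 below (14% of all genes each way), with a median log2 fold change of 2.16. P3h4 and Fkbp10 entered that list from earlier results of these data, so the list gives no independent evidence of its direction. Its median was 1.28 without VTL-153 and 4.68 without VTL-24.

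Other genes with high log2 fold changes did not pass. Adam19, a membrane metalloprotease, stood at 186, 911 and 112 CPM against 0.655 and 1.05 CPM, a log2 fold change of 8.88 (SE 1.47, adjusted p = 0.194 by edgeR). Iltifb and Il22 encode the cytokine interleukin 22 and a close copy of it. Iltifb stood at 29.0, 86.8 and 71.4 CPM against 1 count in the dependent tumours, a ratio of 2533 (95% exact counting interval 454 to 100055), with an adjusted p of 0.0595 by edgeR.

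Il22 stood at 8.85, 52.7 and 33.1 CPM, also against 1 count. Both genes had the same order of tumours, with VTL-25 highest and VTL-153 lowest. Their longest coding transcripts were 97.3% identical, so the split of reads between them is uncertain.

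Tnfsf11, which encodes the cytokine RANKL, stood at 19.3, 16.7 and 2.55 CPM against 0.0468 and 0.210 CPM. Tfpi, an inhibitor of coagulation, stood at 34.9, 12.5 and 41.4 CPM against 0 and 0.210 CPM, and the forkhead gene Foxb1 at 22.1, 39.9 and 10.4 CPM against 0.0468 and 0.158 CPM. Sidt1, a transmembrane protein gene, stood at 241, 369 and 29.6 CPM against 3.13 and 2.26 CPM, and its adjusted p of 0.268 by edgeR was 0.0354 without VTL-21. Sema3f, Gramd3 and Bcas1 had log2 fold changes of 6.09, 6.02 and 7.67, and Bcas1 was also at 34.7, 18.5 and 4.58 CPM in the same tumours without Dox. Ace, the angiotensin-converting enzyme, had a smaller gap with little spread, at 260, 227 and 241 CPM against 18.7 and 9.98 CPM (log2 fold change 4.08, SE 0.34, adjusted p = 0.0595 by edgeR).

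**Figure D4:**
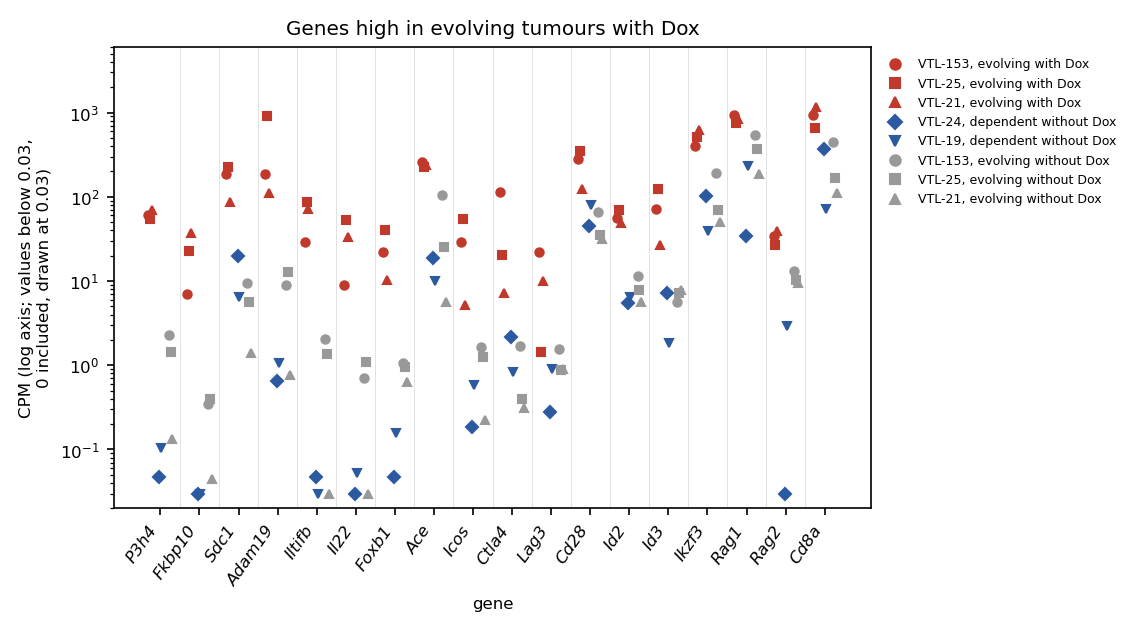
CPM per library (log axis, values below 0.03 drawn at 0.03) of genes that stood higher in evolving tumours with Dox (red) than in dependent tumours (blue). Only genes without overlap between the groups are drawn, so the 3 red points lie above both blue points for each. P3h4 lies at 55.1 to 70.0 CPM in red. The grey points of the same tumours without Dox lie near or below the red ones.

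Regulators of thymocyte development differed most clearly among the inhibitors of E proteins. Id2, which binds E proteins and keeps them from DNA, stood at 56.4, 69.8 and 48.2 CPM in the evolving tumours with Dox and at 5.47 and 6.46 CPM in the dependent tumours (log2 fold change 3.28, SE 0.28, adjusted p = 0.0595 by edgeR). Id3, which acts in the same way and is induced by receptor signals, stood at 72.2, 124 and 27.0 CPM against 7.29 and 1.84 CPM. Both were low in the evolving tumours without Dox, at 5.66 to 11.4 CPM for Id2 and 5.60 to 7.91 CPM for Id3. Of 6 tested genes of E proteins and Id factors, 0 passed, 2 lay without overlap above and 1 below (14% of all genes each way), and the median log2 fold change was 1.77, or 1.14 by limma voom.

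Among 13 T lineage factors, 0 passed, 4 lay without overlap above and 3 below (14% of all genes each way), with a median log2 fold change of 0.12. Ets2, an ETS factor of thymocytes, stood at 191, 252 and 306 CPM against 81.3 and 102 CPM (log2 fold change 1.44, SE 0.27, adjusted p = 0.226 by edgeR), and the chromatin organiser gene Satb1 at 971, 701 and 853 CPM against 402 and 576 CPM. Runx3, a factor of CD8 cells, had the opposite order, at 3.49, 44.7 and 14.7 CPM against 191 and 82.9 CPM.

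The recombinase genes also stood higher. Rag1 was at 937, 744 and 842 CPM in the evolving tumours with Dox, against 34.0 and 232 CPM, and Rag2 was at 34.4, 26.7 and 38.9 CPM, against 0 and 2.89 CPM. The evolving libraries lay close together for both, and the dependent tumour VTL-24 was the lowest library for each. Neither passed, with adjusted p of 0.428 and 0.478 by edgeR. Dntt, the polymerase that adds bases at receptor joints, overlapped, at 975, 668 and 286 CPM against 828 and 1699 CPM, as did Ptcra, the pre-T cell receptor chain, at 74.4, 116 and 213 CPM against 8.51 and 122 CPM. Of the 8 tested genes of this list, 2 lay without overlap above and 1 below (14% of all genes each way), and the median log2 fold change of 0.29 was −0.01 without VTL-24.

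Both chains of the CD8 coreceptor followed the same order. Cd8a stood at 936, 664 and 1162 CPM against 372 and 71.6 CPM, and Cd8b1 at 349, 136 and 370 CPM against 101 and 53.9 CPM, with log2 fold changes of 2.06 (SE 0.74) and 1.87 (SE 0.55) that did not pass. Cd4 overlapped, at 359, 19.3 and 580 CPM against 22.6 and 61.0 CPM, because VTL-25 lay below both dependent tumours. The other 9 of the 12 coreceptor and CD3 genes overlapped between the groups, and the median log2 fold change of the list was 0.29.

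Notch1, the receptor most often activated in this leukaemia, stood at 1872, 1532 and 2694 CPM against 1572 and 2584 CPM, with a log2 fold change of −0.04 (SE 0.34) that changed sign without VTL-153, VTL-25 or VTL-19. Of 15 Notch pathway genes, 0 passed, and 2 lay without overlap above and 2 below, about the 14% of all genes each way, with a median log2 fold change of 0.05. Dtx1, a ubiquitin ligase gene that Notch induces, stood at 908, 896 and 851 CPM against 479 and 371 CPM (log2 fold change 1.06, SE 0.19, adjusted p = 0.220 by edgeR). Heyl, a repressor gene of the same kind, stood at 125, 147 and 68.7 CPM against 60.3 and 60.0 CPM. Notch2 stood at 15.7, 19.8 and 24.6 CPM against 43.8 and 32.9 CPM, in the opposite direction. Log2 fold changes in the list ran from −2.37 to 1.26, so its largest change was a lower level.

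Costimulatory and inhibitory receptors held the most members above the dependent tumours of the lists described here. Of 16 tested, 0 passed, 8 lay without overlap above, where 14% of all genes did, and 1 below. The median log2 fold change was 1.28, against 0.03 over all genes. Icos stood at 29.1, 54.5 and 5.26 CPM against 0.187 and 0.578 CPM (log2 fold change 6.26, SE 1.35, adjusted p = 0.278 by edgeR). Ctla4, an inhibitory receptor, stood at 114, 20.3 and 7.17 CPM against 2.15 and 0.841 CPM. Cd28, the main costimulatory receptor, stood at 279, 351 and 125 CPM against 44.9 and 79.9 CPM (log2 fold change 2.01, SE 0.54, adjusted p = 0.363).

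Cd96 stood at 140, 123 and 48.3 CPM against 28.8 and 16.2 CPM. The inhibitory receptors Lag3 and Btla stood at 1.44 to 22.2 CPM against 0.281 and 0.893 CPM, and at 10.4 to 36.5 CPM against 8.18 and 6.99 CPM. Cd27 had the opposite order, at 154, 204 and 182 CPM against 379 and 294 CPM. The evolving tumours without Dox held 31.8 to 65.8 CPM of Cd28, 0.225 to 1.65 CPM of Icos and 0.315 to 1.70 CPM of Ctla4, with Cd27 at 288 to 428 CPM. VTL-21 with Dox was the lowest of the 3 for Icos, Ctla4, Cd28 and Cd96, but not for Btla, at 18.6 CPM, or Cd27, at 182 CPM.

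Genes near the T cell receptor were mixed, with 4 of 21 without overlap above and 4 below (14% of all genes each way) and a median of 0.08. The kinase gene Fyn stood at 377, 354 and 306 CPM against 174 and 135 CPM, and Nr4a1, a nuclear receptor gene induced by the receptor, at 80.4, 53.7 and 95.0 CPM against 27.1 and 10.1 CPM. Their log2 fold changes were 1.16 (SE 0.20) and 2.03 (SE 0.51), with adjusted p of 0.207 and 0.338 by edgeR. Grb2 had the opposite order, at 179, 284 and 212 CPM against 417 and 307 CPM. So did Cd69, an early gene of the receptor, at 17.4, 4.51 and 11.0 CPM against 78.1 and 17.5 CPM. The chemokine receptor gene Ccr4 stood at 55.4, 111 and 52.0 CPM against 6.59 and 11.5 CPM, and was one of 2 of 13 homing genes without overlap above, about the share over all genes.

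Cytokine receptors that share the gamma chain or gp130 differed in direction by gene. The interleukin 7 receptor gene Il7r, which carries the main survival signal of early thymocytes, stood at 8.80, 1.49 and 11.9 CPM against 144 and 40.1 CPM (log2 fold change −3.64, SE 0.97, adjusted p = 0.362 by edgeR). Il2ra, the CD25 marker of early thymocytes, stood at 230, 45.5 and 558 CPM against 1281 and 1572 CPM. Il9r stood at 45.9, 105 and 94.3 CPM against 221 and 451 CPM, and Il6st, encoding gp130, at 180, 127 and 164 CPM against 489 and 246 CPM.

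Il2rb, the beta chain for interleukins 2 and 15, had the reverse order, at 9.46, 131 and 13.4 CPM against 0 and 0.368 CPM. Of the 9 tested receptors, 0 passed, 4 lay without overlap below and 1 above (14% of all genes each way). Among 15 JAK-STAT genes, 5 lay without overlap below and 3 above, where 14% of all genes did each way, with a median log2 fold change of −0.25. Stat5a, which acts below Il7r, stood at 245, 218 and 158 CPM against 521 and 385 CPM, and Stat3 at 145, 259 and 163 CPM against 340 and 385 CPM, while the feedback inhibitor gene Socs3 stood at 41.5, 12.8 and 47.2 CPM against 6.08 and 5.73 CPM. In the evolving tumours without Dox, Il7r was at 60.2 to 84.7 CPM, Il2ra at 955 to 1498 CPM and Il2rb at 0.0449 to 1.96 CPM.

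Ikzf1, named in the title of the series, showed no clear difference in transcript level. It stood at 833, 2403 and 1023 CPM in the evolving tumours with Dox and at 1450 and 953 CPM in the dependent tumours. The log2 fold change was 0.24 (SE 0.52, adjusted p = 0.940 by edgeR), and it was −0.38 without VTL-25 and −0.02 without VTL-19. Gene-level counts cannot show a mutation, an isoform or the amount of protein. Ikzf3, encoding the relative Aiolos, was the 1 of 5 tested family genes without overlap above, at 404, 511 and 618 CPM against 102 and 39.6 CPM (log2 fold change 2.86, SE 0.48, adjusted p = 0.193 by edgeR). Ikzf5 lay without overlap below, at 41.5, 27.1 and 39.4 CPM against 42.9 and 47.6 CPM, whereas Ikzf2 and Ikzf4 overlapped. The evolving tumours without Dox held 191, 70.0 and 50.1 CPM of Ikzf3, of which VTL-153 alone lay above both dependent tumours.

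Tumour suppressors of T-cell leukaemia stood close to the dependent level as a group, with 1 of 21 without overlap above, 3 below (14% of all genes each way) and a median log2 fold change of 0.05. Cdkn2a, which encodes p16INK4a and p19ARF, split the evolving tumours, at 4.50 CPM in VTL-153 and 279 and 110 CPM in VTL-25 and VTL-21 with Dox, against 1.26 and 5.41 CPM. VTL-153 without Dox held 190 CPM, and VTL-25 and VTL-21 without Dox held 182 and 117 CPM. Etv6, a repressor of the ETS family, stood at 60.3, 37.7 and 51.7 CPM against 73.8 and 239 CPM, and Ptpn2, a phosphatase of JAK proteins, at 61.8, 60.6 and 55.5 CPM against 92.2 and 86.0 CPM. Phf6 stood at 95.2 to 166 CPM against 182 and 180 CPM, and Suz12 at 368 to 515 CPM against 339 and 341 CPM.

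Cell cycle genes of the G1 phase differed by gene. Cdk6 stood at 231, 341 and 323 CPM against 419 and 1053 CPM, and Ccnd3, the D cyclin of thymocytes, at 750, 511 and 620 CPM against 309 and 454 CPM. Their log2 fold changes were −1.31 (SE 0.42) and 0.71 (SE 0.27) and did not pass. Of 16 genes on that list, 1 lay without overlap above and 4 below, and of 22 genes of DNA replication and mitosis 4 lay above and 1 below (median 0.22), against 14% of all genes each way.

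Of 14 genes of the integrated stress response, 0 passed, 7 lay without overlap below, where 14% of all genes did, and 0 above, with a median log2 fold change of −0.68. Psat1, an enzyme of serine synthesis, stood at 269, 220 and 178 CPM against 563 and 353 CPM, and the stress factor gene Ddit3 at 13.9, 13.9 and 14.2 CPM against 28.5 and 24.3 CPM. Trib3 stood at 0.809, 0.644 and 2.41 CPM against 15.9 and 4.89 CPM. The same tumours without Dox were also below both dependent libraries for Psat1, at 215 to 243 CPM, and for Ddit3, at 12.4 to 17.8 CPM.

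Of 19 genes of cholesterol synthesis and handling, 0 passed, 9 lay without overlap below and 1 above (14% of all genes each way), with a median log2 fold change of −0.41. Hmgcs1, an early enzyme of the pathway, stood at 58.7, 40.8 and 66.9 CPM against 96.8 and 146 CPM (log2 fold change −1.13, SE 0.29, adjusted p = 0.348 by edgeR). The gene above was Abcg1, a sterol exporter, at 41.2, 31.2 and 55.9 CPM against 4.58 and 13.0 CPM. Hmgcs1 in the evolving tumours without Dox overlapped the dependent tumours, at 83.7, 224 and 173 CPM. Hk1, a first enzyme of glycolysis, stood at 136, 128 and 170 CPM against 285 and 271 CPM, but 1 of 17 glycolysis genes lay without overlap above and 2 below, and the median of that list was 0.03.

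**Figure D5:**
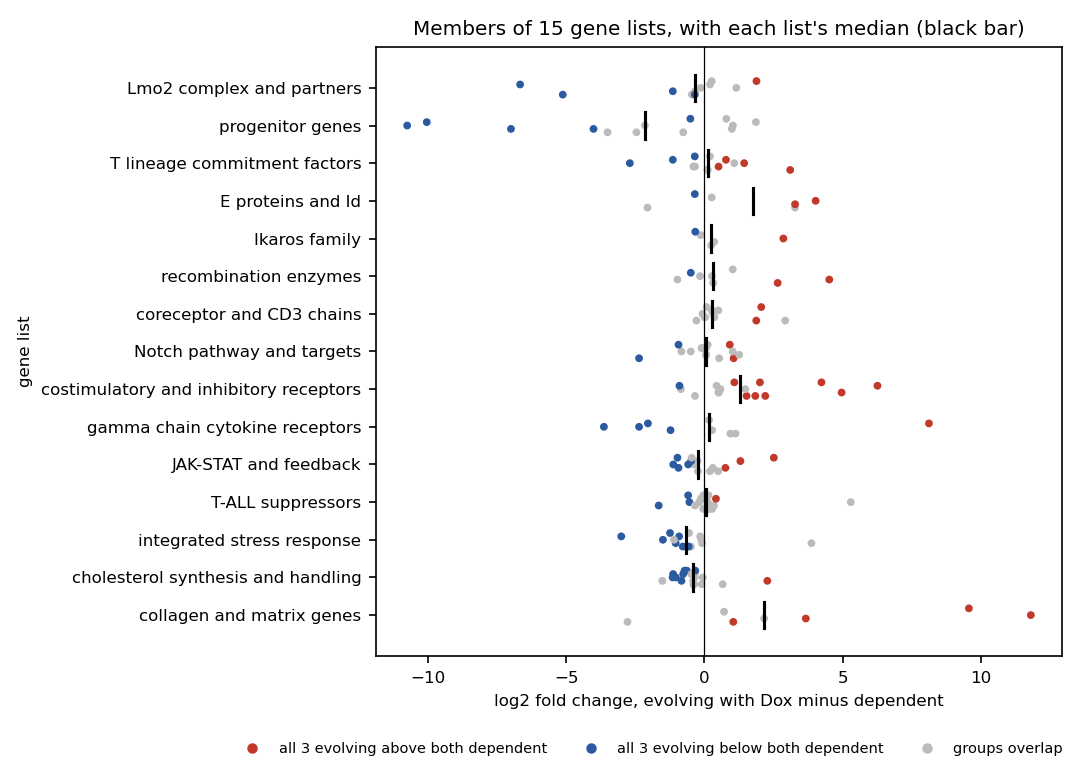
Log2 fold changes (evolving with Dox minus dependent) of the tested members of 15 gene lists, with 1 point per gene, coloured where the groups do not overlap, and a black bar at each list's median. The progenitor median lies at −2.16, the costimulatory and inhibitory receptor median at 1.28 and the Ikaros family median at 0.24.

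All values come from bulk RNA, in which fewer cells of a type and less RNA per cell cannot be told apart.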

How the data were processed

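STAR 2.5.2b, mm10 and featureCounts are the aligner, genome build and counter in the submitters' processing notes; the annotation, strand setting and filters are not given in the sources used here. The deposited values were raw counts per gene, which the authors had not normalised, for 12421 genes, all of which reached 1 CPM in 2 or more libraries. Another 42 per-sample columns and the authors' comparison were not used. Per the labels' protocols, RNA had an integrity number above 8 and libraries were made with the NEBNext Ultra II kit. GENCODE M21 gave positions for 12379 of the 12421 genes. Upstream sequences were in the RefSeq table for 5 of 8 genes looked for.

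The 5 libraries were compared by edgeR 4.0.16 (R 4.3.3, TMM, default filter with minimum count 10, robust quasi-likelihood fit, Benjamini-Hochberg adjustment over 12118 genes, threshold 0.05). All adjusted p are from edgeR unless another tool is named. CPM used TMM-scaled library sizes, and SE is the log2 fold change divided by the square root of the F statistic. The alternatives tried were DESeq2 1.42.0, limma voom (limma 3.58.1), RLE size factors, no filter, a minimum count of 50, a fit that was not robust, receptor segments left out, 3 larger sets of libraries, and each tumour left out.

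The members and the 37 gene lists were chosen with earlier results of these data known. Named were Lmo2 and Ikzf1, up to 15 passing genes in each direction (at least 10 CPM in the higher group, no overlap, no receptor segments, predicted genes, pseudogenes or sex-linked genes), up to 6 passing members of each list, and members, passing or not, of the lists of the Lmo2 complex, the Ikaros family, tumour suppressors, Notch, recombination, coreceptors and costimulation. Because 1 gene passed, the 12 highest and 12 lowest genes that met these conditions at an unadjusted p under 0.01, Ace, and members of other lists were added after their values were seen. Of 94 genes checked for position, most of them named above, 20 overlap another gene of the table. Their counts are uncertain without the strand setting. Among them are Fkbp10, Foxb1, Gpr82, Mdga1, Rag1 and Rag2. For Rag1, Gata3, Lmo4, Satb1 and Il2ra an overlapping gene lies on the same strand.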

Additional observations from a re-analysis of the deposited data

How the results depend on the processing

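The count of 1 gene called in the evolving tumours with Dox against the dependent tumours was the same with RLE size factors, no filter, a minimum count of 50, a fit that was not robust, and receptor segments left out. It was 636 by DESeq2 (348 higher, 288 lower) and 0 by limma voom. With the independent tumours without Dox added it was 0, and with those with Dox added it was 8 (1 higher, 7 lower). With all 14 libraries it was 95 (30 higher, 65 lower), in a fit that ignored which libraries shared a tumour. Leaving out 1 tumour at a time gave 0 to 9 calls: 9 without VTL-21 (3 higher, 6 lower), 1 without VTL-24 and 0 without each of the other 3. A lone dependent tumour was taken to vary as the evolving ones do. For the evolving tumours without Dox against the dependent tumours, the count of 0 became 170 by DESeq2 (75 higher, 95 lower) and stayed 0 by limma voom, with RLE size factors and with no filter. The log2 fold change of Lmo2 was −6.69 by DESeq2, where it passed, and ran from −8.75 to −6.17 when tumours were left out, passing without VTL-21. For P3h4 the range with tumours left out was 9.10 to 10.19. The cause of these differences was not tested. Among the named genes the estimate changed sign in 9 cases, all with 1 tumour left out. Over the tumours left out, the range was −3.57 to 0.58 for Kit, −0.36 to 0.37 for Notch1, −0.38 to 0.56 for Ikzf1 and −0.75 to 0.67 for Ikzf4. No paired analysis was possible because the 2 groups share no tumour number. Depth limited the genes with 0 to 3 counts in a group, for which bounds or counting intervals are given.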

Other observations

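Other gene groups are given here beside all genes tested, of which 14% lay without overlap each way, with a median log2 fold change of 0.03. Of 16 tested genes of the MHC class I pathway, 0 passed, 2 lay without overlap below and 0 above, with a median log2 fold change of −0.21. Of 32 interferon-inducible genes, 2 lay above and 5 below (median −0.06), and of 19 genes of MYC and ribosome biogenesis 1 lay above and 0 below (median 0.04). The BCL2 family had 3 of 12 below and 0 above, p53 targets had 3 of 14 above and 2 below, and the PI3K, AKT and FOXO genes had 3 of 20 each way. Early genes induced by the T cell receptor had 3 of 14 each way, with a median of 0.61. Of 10 tested genes of regulatory T cells, 3 lay above and 1 below (median 0.88), and all 4 tested cytotoxic genes overlapped (median 0.55).

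Marker lists of other cells depended on VTL-21. The median log2 fold change was 1.40 for the 8 B cell markers, −0.02 for the 17 tested myeloid markers and 3.57 for the 8 tested erythroid markers, and without VTL-21 it was −1.14, −3.19 and −0.12. The 4 stromal and endothelial markers tested overlapped between the groups. None of the 10 NK and innate lymphoid markers was analysed here. The immunoglobulin light chain gene Igkc stood at 1627 CPM in VTL-21 with Dox, at 163 CPM in the dependent tumour VTL-19 and at 353 CPM in VTL-21 without Dox, and at 0.0468 to 36.5 CPM in the other 5 of these 8 libraries.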
